A study of Mus musculus with 2 samples.

Results

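Plasma cells were picked by transcript counts among the barcodes of mouse pancreatic tumours profiled by droplet-based single-cell RNA-seq. A barcode was taken as a plasma cell when it held at least 10 unique molecular identifiers (UMIs) of Jchain and at least 3 of Mzb1. It also held at most 1 UMI of the T cell genes Cd3d, Cd3e, Cd3g and Trac together, and at most 15 of the keratins Krt8, Krt18 and Krt19. Only barcodes in which 500 or more genes were detected and no more than 15% of UMIs were mitochondrial were considered. In all, 205 of 22472 such barcodes were plasma cells, 41 of 11664 in the control library and 164 of 10808 in the knockout library. Jchain and Mzb1 were therefore high by choice, and their levels are given only as a description. In the control library the lowest Jchain count among members was 37 UMIs, and the nearest barcode outside the limit held 4. In the knockout library 1 member held 10, 1 held 11 and 2 held 12 Jchain UMIs, while 1 barcode outside the limit held 9 and another 7. For Mzb1, 1 member of each library held 3 UMIs, and 1 knockout barcode outside the limit held 2. Of the 58 control and 192 knockout barcodes past both minimums, the T cell ceiling removed 3 and 14 and the keratin ceiling 16 and 16, with 2 in each library removed by both.

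Tumours of KPC cells, a mouse pancreatic cancer line, were grown in the pancreas and taken at day 21. The control library came from Porcnfl/fl littermates, which carry the floxed Porcn alleles without Cre, and the knockout library from Csf1r-Cre;Porcnfl/fl mice. Porcn encodes the acyltransferase that Wnt ligands need for secretion, and the labels describe the Csf1r-Cre deletion as specific to macrophages. Each library pooled the tumours of 5 mice of one genotype, so no value below has a replicate, no test between genotypes was possible and cells of different mice cannot be told apart. Intervals given here have a level of 95%, describe only the error of counting, and are too narrow where a few cells carry most UMIs of a gene. Macrophage barcodes were defined by at least 5 C1q UMIs. Among them, Porcn had 7 UMIs in 251 control cells (3.92 UMIs per 1000000 non-immunoglobulin UMIs, written CPM from here on). In 262 knockout cells it had 0, which allows up to 1.93 CPM. Whether the 3′ reads fall in the deleted part of Porcn is not given in the sources used here. The plasma cells themselves held 0 and 2 Porcn UMIs and no Csf1r UMI in either library. The libraries shared 46 barcodes, and none of these was a plasma cell in both.

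Plasma cells are the terminally differentiated B lineage cells that secrete antibody. The transcription factors Blimp-1 (Prdm1), Irf4 and Xbp1 install this programme: Blimp-1 and Irf4 shut down B cell identity and Xbp1 expands the endoplasmic reticulum and its folding machinery. Their cycling precursors, plasmablasts, still divide and still carry MHC class II, which is lost as the cells mature, and in tumours both can be formed locally or enter from the blood.

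Plasma cells made up 0.352% (exact binomial interval 0.252 to 0.477) of control barcodes and 1.52% (1.30 to 1.77) of knockout barcodes, a ratio of 4.32 (3.05 to 6.24). Among barcodes with a UMI of the leukocyte gene Ptprc, the shares were 2.88% (34 of 1181) and 3.61% (134 of 3713). On that denominator the ratio was 1.25 (0.855 to 1.88), and its interval includes 1. The knockout library held more leukocyte barcodes and fewer epithelial ones than the control library, 4807 against 7596 epithelial barcodes. B barcodes, defined by Cd79a and Ms4a1 with fewer than 10 Jchain UMIs, numbered 4 and 349, which is 0.0343% and 3.23% of kept barcodes. Plasma cells thus outnumbered B barcodes in the control library and were outnumbered by them in the knockout library.

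Genes the rule had not used were high in the same cells. Igkc, the kappa light chain constant gene, had a UMI in 39 of 41 control and 163 of 164 knockout cells, with medians of 4154 and 3412.5 UMIs. Immunoglobulin genes held a median of 40.6% of all UMIs per control cell (range 11.2 to 68.3) and 35.6% per knockout cell (0.766 to 67.4), against a median of 1.10% in knockout B barcodes. The lowest values stood in the knockout library: 12 of 164 cells (7.32%, 3.84 to 12.4) were under 10% immunoglobulin. In the control library 0 of 41 cells were, which allows a share of up to 8.60%, so the intervals overlap. Cells were of like depth, with medians of 14842 and 15680 UMIs and 2474 and 2537.5 genes. After thinning each cell to 1000 non-immunoglobulin UMIs, Xbp1 was found in 75.6% (59.7 to 87.6) of control and 73.2% (65.7 to 79.8) of knockout plasma cells, against 3.72% of knockout B barcodes; without thinning it was found in 95.1% and 98.8% of plasma cells. Sdc1, which encodes CD138, the classical surface marker of plasma cells, was found in 14.6% and 12.8% of plasma cells, close to the 20.2% and 17.1% of epithelial barcodes at the same depth. Without thinning, Sdc1 had a UMI in 33 of 41 control and 117 of 164 knockout plasma cells. Like shares in both cell types do not tell where the UMIs came from, and the part of free RNA in Sdc1 was not tested.

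Between the libraries the plasma cell identity genes differed mostly by less than the fold, and most were lower in the knockout library. Of the 19 genes of the plasma cell identity list, 0 were at least 2 times higher and 1 was at least 2 times lower in the knockout library. The log2 ratio was below 0 for 15 and above 0 for 4, with a median of -0.45. Over all 7893 genes with at least 20 UMIs, 8.68% (685) were at least 2 times higher, 5.4% (426) at least 2 times lower, and the median was -0.01; scaled to all UMIs, these were 979 and 229 genes and the median 0.22. In control cells Xbp1 stood at 1805 CPM (1663 to 1955), and in knockout cells at 1357.5 CPM (1304 to 1413), a log2 ratio of -0.41. Per cell it ranged from 0 to 45 UMIs with a median of 11 in the control library, and from 0 to 56 with a median of 12 in the knockout library, so the cells overlapped over nearly the whole range. Prdm1 was at 154 and 108 CPM, and Irf4 at 363 and 391 CPM, where the interval of the ratio (0.888 to 1.32) includes 1. Slamf7, a surface receptor of plasma cells, was at 302 and 346 CPM. Txndc5, a disulfide isomerase of the endoplasmic reticulum, was at 1279 and 838 CPM, and Derl3, a factor of degradation from that compartment, at 339 and 298 CPM. Tnfrsf17 (BCMA), the receptor through which APRIL keeps plasma cells alive, was the gene past the fold, with UMIs in 16 of 41 control cells (96.7 CPM, 66.2 to 137) and 36 of 164 knockout cells (43.4 CPM, 34.2 to 54.3). Its log2 ratio of -1.18 became -0.79 without the cells high in cell cycle transcripts described below. All 19 genes stayed within the fold without those cells, with a median of -0.14.

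The listed genes of the secretory machinery stayed within the fold between the libraries, as did most genes. Of 26 genes of the unfolded protein response, 0 passed the fold in either direction (median log2 ratio -0.08), against 14.1% of all genes. Of 32 genes of translocation into the endoplasmic reticulum and secretion, 0 did (median -0.07). With a minimum of 100 UMIs, 0 of 25 and 0 of 31 passed, where 160 of 2936 genes were higher and 34 lower. Hsp90b1, the endoplasmic reticulum chaperone GRP94, was at 6680 CPM (6405 to 6965) and 7275 CPM (7149 to 7402). Hspa5, the chaperone BiP, was at 1865 and 2053 CPM, and Ssr4, a subunit of the translocon-associated complex, at 4280 and 3220 CPM. These genes stood far above B barcodes of the knockout library, where Hsp90b1 was at 440 CPM, Hspa5 at 305 CPM and Ssr4 at 194 CPM. Scaled to all UMIs, the medians of the identity, unfolded protein response and secretion lists were -0.22, 0.15 and 0.17, against 0.22 over all genes.

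**Figure D1:**
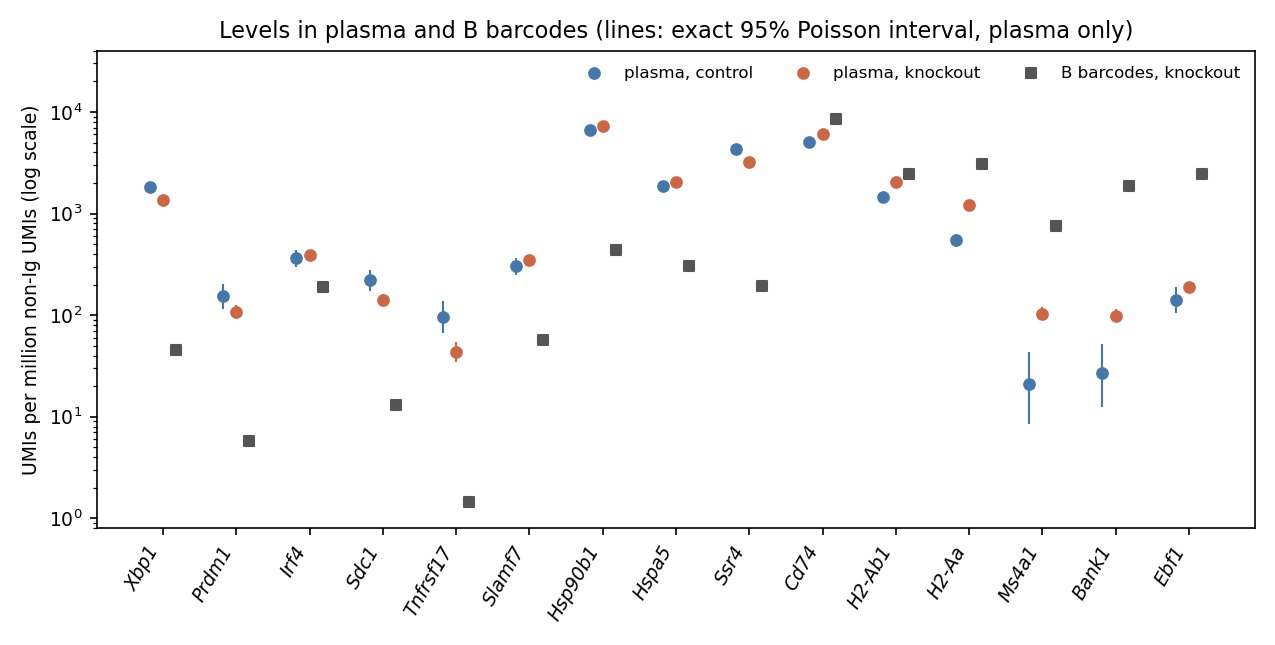
Level of 15 genes as UMIs per 1000000 non-immunoglobulin UMIs on a log axis, summed over the 41 control plasma cells (blue), the 164 knockout plasma cells (orange) and the 349 knockout B barcodes (grey squares); lines are exact 95% Poisson intervals for plasma cells, and some are smaller than the point. Identity and secretory genes sit close together in both plasma groups and above B barcodes, while for H2-Aa, Ms4a1 and Bank1 the knockout plasma cells lie between control plasma cells and B barcodes. B barcodes were chosen by Ms4a1, so its level in them is high by choice.

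Cell cycle genes stood apart between the libraries. Of 25 listed genes, 24 were at least 2 times higher in knockout plasma cells, against 8.68% of all genes. Their median log2 ratio over the 25 was 2.82 (2.81 with Ccna2, which had no control UMI, set at its floor of 3 UMIs). Only Mcm6, at 54.4 and 68.6 CPM, stayed within the fold. The promoters of Cdk1, the kinase that drives entry into mitosis, and of Ccnb2, a cyclin that activates it, are shown because these genes were higher together. The windows run from 250 bases before to 50 after the start in RefSeq on GRCm38.p6, Cdk1 at chr10:69352863-69353162 and Ccnb2 at chr9:70421505-70421804, both on the minus strand. Capitals mark TTTGAA, the core of the cell cycle genes homology region, which lies in promoters of many late cell cycle genes.
Cdk1: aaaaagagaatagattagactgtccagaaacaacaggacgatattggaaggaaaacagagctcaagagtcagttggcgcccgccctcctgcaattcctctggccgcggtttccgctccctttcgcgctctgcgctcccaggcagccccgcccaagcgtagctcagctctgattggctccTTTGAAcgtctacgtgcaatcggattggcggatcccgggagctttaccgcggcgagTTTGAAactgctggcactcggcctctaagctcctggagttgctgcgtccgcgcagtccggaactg
Ccnb2: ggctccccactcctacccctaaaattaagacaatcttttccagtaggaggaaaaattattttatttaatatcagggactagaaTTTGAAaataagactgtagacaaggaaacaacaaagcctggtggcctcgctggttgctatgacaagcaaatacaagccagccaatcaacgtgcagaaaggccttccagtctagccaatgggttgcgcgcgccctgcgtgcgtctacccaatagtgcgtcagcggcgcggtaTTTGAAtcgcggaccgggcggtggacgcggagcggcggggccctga
Cdk1 held the match at 71 and 15 bases before the start and Ccnb2 at 167 bases before and base 5 after it. On either strand TTTGAA was present in 9 of the 21 listed genes with a promoter entry and in 17.9% of all 32851 promoter windows of that length. CCAAT was present in 18 of the 21 and in 37.4% of all windows. A match of this kind describes letters in a window and shows no binding.

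Cdk1 had 3 UMIs in control cells (9.07 CPM) and 144 in knockout cells (82.3 CPM), and Ccnb2 had 2 and 111 UMIs (6.05 and 63.4 CPM). Top2a, the topoisomerase that untangles replicated DNA, was at 36.3 CPM (18.7 to 63.4) and 228 CPM (206 to 251), with UMIs in 5 and 48 cells. Hmgb2, a chromatin protein of dividing cells, was at 109 CPM (76.2 to 151) and 835 CPM (792 to 879). Per control cell Hmgb2 ranged from 0 to 14 UMIs and per knockout cell from 0 to 133, with medians of 0 in both, so the higher sum came from a minority of cells. Mki67, which encodes the proliferation antigen Ki-67, was at 112 and 386 CPM, but its shares after thinning, 12.2% (4.08 to 26.2) in the control and 15.9% (10.6 to 22.4) in the knockout library, overlap. Ube2c, a ubiquitin-conjugating enzyme of mitotic exit, was then found in 0 of 41 control cells, which allows up to 8.60%. In knockout cells it was found in 7.93% (4.29 to 13.2), so the intervals overlap.

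Cell cycle UMIs were unevenly spread over the cells. Scoring each cell by its cell cycle list UMIs per 1000 non-immunoglobulin UMIs, 27 of 164 knockout cells (16.5%, 11.1 to 23.04) and 1 of 41 control cells (2.44%, 0.0617 to 12.9) reached 5. The limit of 5 was set after the scores had been seen, and the score is continuous: 3 control and 6 knockout cells lay between 2 and 5, 1 and 10 between 5 and 10, and 0 and 17 at 10 or above. With a limit of 2 in place of 5, 9.76% of control and 20.1% of knockout cells passed. The ratio of the shares was 6.75 (1.11 to 276), its interval leaves out 1, and the intervals of both shares overlap. Thinned to 2000 non-immunoglobulin UMIs, the shares were 2.56% (1 of 39) and 15.95% (26 of 163). Among B barcodes of the knockout library, 5 of 349 (1.43%) reached the limit. The limit used the cell cycle list itself, so the level of that list without the cells past it is fixed by the choice and read only as a description: 11 of its genes still had 20 UMIs, of which 1, Cenpa, was past the fold. Over all genes without those cells, 4.38% were at least 2 times higher and 4.57% at least 2 times lower. A mean over cells, which gives deep cells no extra weight, left 16 of the 25 genes past the fold. Whether the 27 cells came from 1 mouse or several cannot be told apart.

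**Figure D2:**
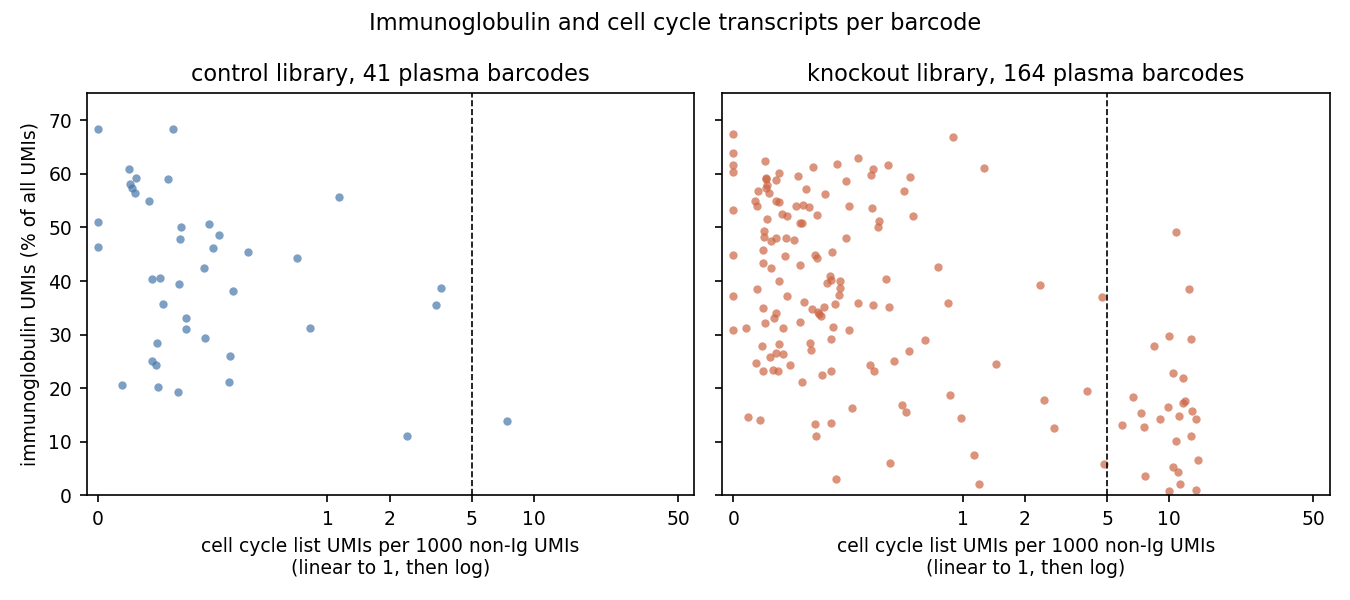
Each point is 1 plasma cell, placed by its cell cycle list UMIs per 1000 non-immunoglobulin UMIs (horizontal, linear to 1 and then logarithmic) and by the share of its UMIs from immunoglobulin genes in percent (vertical), for the control (left) and knockout (right) library; the dashed line is the limit of 5. In the knockout library 27 cells lie to the right of the line, most of them under 30% immunoglobulin, and in the control library 1 does.

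Within the knockout library, the 27 cells high in cell cycle transcripts held less antibody transcript and more other RNA than the other 137. Immunoglobulin took a median of 14.8% of their UMIs (0.766 to 49.2) against 39.6% (2.11 to 67.4), so the ranges overlapped. They held a median of 19504 non-immunoglobulin UMIs against 8144, and 4424 genes against 2461. Jchain stood at a median of 172 UMIs against 275. Of the 19 identity genes, 10 were at least 2 times lower in them and 0 higher (median log2 ratio -1.19), where 7.01% of the 7365 genes read were at least 2 times lower and 13.4% higher, with a median of 0.13. Xbp1 was at 678 CPM in these cells against 1680 CPM, Edem1, which takes misfolded glycoproteins to degradation, at 238 against 747 CPM, and Tent5c, a poly(A) polymerase that lengthens the tails of antibody mRNA, at 213 against 713 CPM. Pou2af1, a coactivator shared by B cells and plasma cells, was at 380 and 372 CPM. Of 26 genes of the unfolded protein response 6 were at least 2 times lower. Slpi, a secreted protease inhibitor, was at 328 CPM against 12079 CPM. CPM values are shares of the non-immunoglobulin UMIs, of which the 27 cells held more, and a lower share need not be a lower count per cell. Median UMIs per cell were 11 in the 27 cells and 12 in the 137 for Xbp1, and 3 and 3 for Irf4. They were 5 and 3 for Slamf7 and 97 and 50 for Hsp90b1. RNA per cell was not measured. In UMIs of other cell types' genes, medians over the 27 cells were 0 for the T and NK, neutrophil, fibroblast, acinar and erythroid lists, 1 for the endothelial, 4 for the macrophage, 5 for the epithelial and 18 for the dendritic cell list. The other 137 cells held a median of 8 UMIs of the dendritic cell list, and per 1000 non-immunoglobulin UMIs the medians were 0.787 in the 27 cells and 0.960 in the 137. Scrublet called 2 of the 164 knockout and 0 of the 41 control cells doublets, and without those cells 24 of the 25 cell cycle genes stayed past the fold.

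Of 9 MHC class II genes read, 4 were at least 2 times higher in knockout plasma cells and 0 lower, against 8.68% and 5.4% of all genes, with a median log2 ratio of 0.78. These were H2-Aa, the alpha chain of I-A, H2-DMa and H2-DMb1 and H2-DMb2, chains of the chaperone that loads peptide onto class II. H2-Aa was at 547 CPM (470 to 633) and 1205.5 CPM (1155 to 1258). It ranged from 0 to 37 UMIs per control cell with a median of 2, and from 0 to 97 per knockout cell with a median of 4. After thinning, H2-Aa was held by 26.8% (14.2 to 42.9) of the control and 46.3% (38.5 to 54.3) of the knockout plasma cells, intervals that overlap. H2-Ab1, the beta chain of I-A, was at 1439 and 2025 CPM, H2-Eb1, the beta chain of I-E, at 825 and 1417 CPM, and Cd74, the invariant chain, at 5060 and 6056 CPM. In the other kept barcodes H2-Aa was higher in the knockout library too, at 442 CPM in the control and 686 CPM in the knockout library, and its thinned share in epithelial barcodes was 29.8% and 38.6%, so the control plasma cell share was not above that level. H2-DMb1 stayed under the other kept barcodes in both libraries (21.2 against 94.0 CPM and 57.7 against 114 CPM). The part of free RNA in the plasma cell values was not tested. In the 27 cells high in cell cycle transcripts H2-Aa was at 1670 CPM and in the other 137 at 985 CPM. Without the former and their control counterpart, 1 of 8 genes, H2-DMa, was past the fold and the median was 0.69. A mean over cells also left 1 of the 9 past the fold, with a median of 0.67.

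The proximal promoters of H2-Aa (chr17:34287774-34288073, minus strand) and H2-Eb1 (chr17:34305617-34305916, plus strand) are shown from the same RefSeq table, since H2-Aa was past the fold and H2-Eb1, with a log2 ratio of 0.78, was the median gene of the list. Capitals mark CTGATTGG, the Y box by which class II promoters bind NF-Y.
H2-Aa: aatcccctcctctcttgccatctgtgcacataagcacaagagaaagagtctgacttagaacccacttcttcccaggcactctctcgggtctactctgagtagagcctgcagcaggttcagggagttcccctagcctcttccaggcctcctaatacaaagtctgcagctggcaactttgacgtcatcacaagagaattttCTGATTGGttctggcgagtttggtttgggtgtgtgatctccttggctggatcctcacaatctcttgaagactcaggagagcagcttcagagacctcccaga
H2-Eb1: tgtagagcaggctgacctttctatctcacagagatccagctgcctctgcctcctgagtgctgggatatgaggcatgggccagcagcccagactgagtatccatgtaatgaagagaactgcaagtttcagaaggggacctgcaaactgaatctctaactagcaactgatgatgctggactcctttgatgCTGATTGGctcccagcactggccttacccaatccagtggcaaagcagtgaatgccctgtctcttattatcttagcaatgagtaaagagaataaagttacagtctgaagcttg
The box began 51 bases before the start of H2-Aa and 62 before that of H2-Eb1. Searched on both strands, it was present in 3 of the 7 listed class II genes with an entry and in 4.10% of all windows. It holds the reverse complement of CCAAT, so every window with the box also counts for CCAAT, which all 7 genes held.

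Genes of mature B cells, normally silenced in plasma cells, were in part higher in the knockout library. Of 12 genes read, 5 were at least 2 times higher and 0 lower (median log2 ratio 0.36), against 8.68% and 5.4% of all genes. Ms4a1, which encodes CD20, had 7 UMIs in 4 of 41 control cells (21.2 CPM, 8.51 to 43.6) and 181 in 56 of 164 knockout cells (103 CPM, 88.9 to 120). In knockout B barcodes, which were chosen by it, Ms4a1 was at 756 CPM. Single knockout members held 41, 23 and 11 of the 181 UMIs, and 2 Xbp1 and 0 Sdc1 UMIs each. Immunoglobulin took 2.11%, 1.03% and 0.766% of their UMIs, inside the range of knockout B barcodes (0.137% to 5.76%, median 1.10%). They met the member rule by Jchain and Mzb1, but the name plasma cell is uncertain for them. They are counted in all knockout values given here. All were among the cells high in cell cycle transcripts. Blk, a B cell receptor kinase, was at 12.1 and 73.1 CPM, and Bank1, a B cell scaffold protein, at 27.2 and 98.8 CPM. Pax5, the factor that maintains B cell identity, had 0 and 27 UMIs, the latter in 10 cells. For Bach2, a repressor of Blimp-1, 1 knockout cell held 52.7% of the UMIs, and its log2 ratio of 1.47 became 0.40 after leaving out that cell. Cd79a and Cd79b, signalling chains of the B cell receptor, were at 586 and 502 CPM and at 414 and 444.5 CPM. Without the cells high in cell cycle transcripts, Ms4a1, Bank1 and Blk, of 10 genes read, stayed past the fold, where 4.38% of all genes were at least 2 times higher. B barcodes were 3.23% of the knockout library and 0.0343% of the control library, so B cell RNA, free or from a second cell under one barcode, also differed in supply, and its part in these values was not tested.

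IgG was the leading class in both libraries. A cell was given the isotype whose constant gene held at least 80% of its heavy constant UMIs. Any IgG took 70.7% (54.5 to 83.9) of control and 72.6% (65.1 to 79.2) of knockout plasma cells. Ighg2c was the most frequent, taking 39.0% (24.2 to 55.5, 16 cells) of control plasma cells and 42.1% (34.4 to 50.02, 69 cells) of those from knockout tumours. Ighg2b followed with 9 (21.95%) and 33 (20.1%), Igha with 5 (12.2%) and 21 (12.8%), and Ighm with 6 (14.6%, 5.57 to 29.2) and 14 (8.54%, 4.75 to 13.9). Ighg1 took 2 and 12 cells and Ighg3 2 and 5. No cell was assigned Ighd or Ighe, which for the 164 knockout cells allows up to 2.22%. For every isotype found the intervals of both libraries overlap. Kappa light chains were held by 92.7% and 96.3% of cells and lambda by 2 control and 3 knockout cells. Of the 27 knockout cells high in cell cycle transcripts, 16 carried IgG, 4 Igha, 2 Ighm, and 5 had no single isotype, against 10 without one among all 164. As UMIs per 1000000 of all UMIs, Ighm stood at 18011 in control and 5278 in knockout cells.

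Some cells held UMIs of a second constant gene. In Ighg2c cells, Ighg2b held a median of 11.4% of heavy constant UMIs in the control and 8.14% in the knockout library, and at most 18.1%. The source of these Ighg2b UMIs was not tested, so they are uncertain. The reverse was rare, with medians of 0% and 0.316% for Ighg2c in Ighg2b cells. With a limit of 95% instead of 80%, Ighg2c cells were therefore only 12.2% and 19.5% of all, while any IgG stood at 41.5% and 47.6%. Apart from the constant genes, Iglv1, a lambda variable segment, had at least 10 UMIs in 29 of 38 control and 101 of 158 knockout cells that were kappa by their constant gene.

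**Figure D3:**
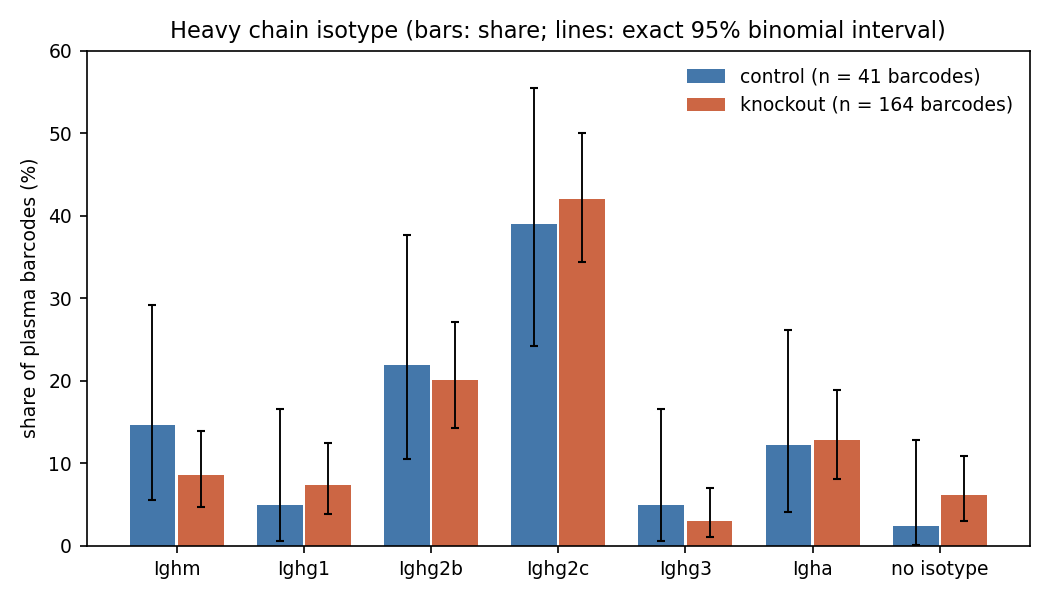
Share of plasma cells with each heavy chain isotype, in percent, for the 41 control (blue) and 164 knockout (orange) cells; lines are exact 95% binomial intervals. Ighg2c is the tallest bar in both libraries, and the intervals of both libraries overlap for every isotype.

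Variable segments showed diverse repertoires with repeated pairings. A heavy variable segment (Ighv) was assigned in 34 control cells, with 25 different segments, and in 131 knockout cells, with 42. Ighv1-82 was the most frequent in both, in 4 and 13 cells. Among kappa segments Igkv3-7 led in the control library with 7 of 39 cells, and Igkv3-4 and Igkv6-23 in the knockout library with 13 of 154 each. Both segments were assigned in 33 control and 125 knockout cells. In the control library 27 of the 33 had a pairing of their own and 6 shared one, in 3 pairings of 2 cells. In the knockout library 53 of 125 had their own and 72 shared 22 pairings. The most frequent was Ighv1-81 with Igkv3-2, in 7 cells, of which 4 were Ighg2c, 2 Ighg2b and 1 Ighg3, and 3 were high in cell cycle transcripts. Ighv1-82 with Igkv6-23 came next with 6 cells, and Ighv2-3 with Igkv10-96 was in 5, of which 3 were Ighg2b and 2 Igha. In the control library the 2 Ighv11-2 cells with Igkv14-126, a pairing known from B-1 cells that bind phosphatidylcholine, were both Ighm.

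More cells give more sharing, so the libraries were also compared by pairs of cells: 3 of 528 pairs (0.568%) in the control and 103 of 7750 pairs (1.33%) in the knockout library shared both segments. With the isotype added these were 1 of 496 (0.202%) and 41 of 7140 (0.574%). Shared segments are not shown to be one clone, because the junction sequences are not in these counts. Moreover, 11 pairings occurred in both libraries, whose mice differ, and they took 13 of 33 control (39.4%) and 33 of 125 knockout cells (26.4%). Ighv1-82 with Igkv6-23 was among them, with 2 and 6 cells. Of the 22 knockout pairings with several cells, 14 held more than 1 isotype and 8 held a cell high in cell cycle transcripts, 11 such cells in all.

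**Figure D4:**
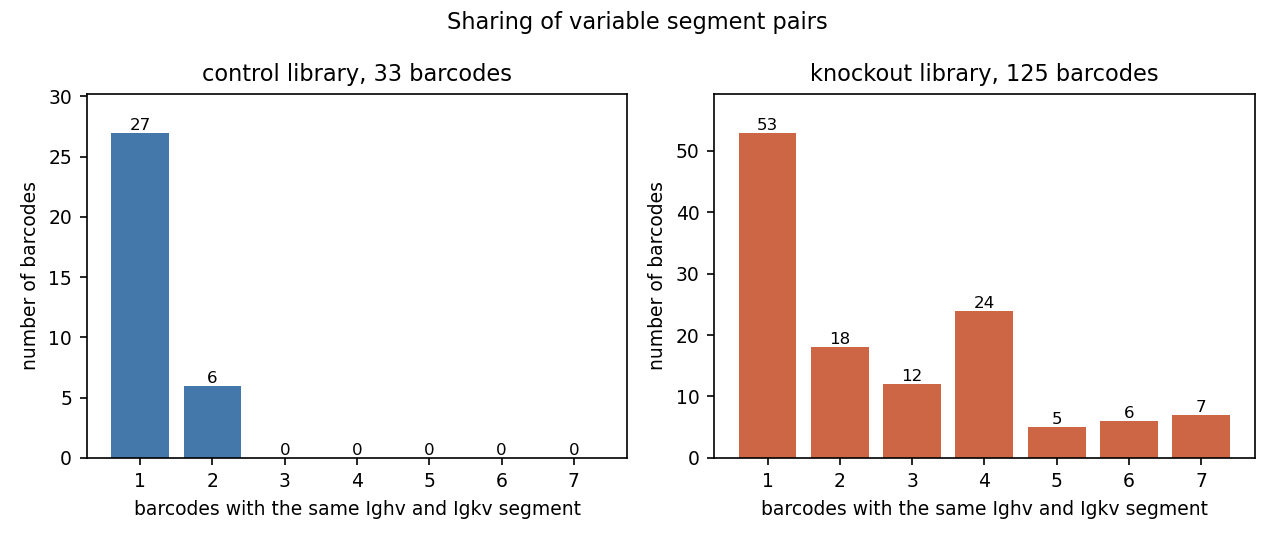
Number of plasma cells (vertical) by how many cells of the same library carry the same Ighv and Igkv segment (horizontal), for 33 control and 125 knockout cells with both segments assigned. In the control library 27 cells stand alone and 6 are in pairs; in the knockout library 53 stand alone and 72 share their pairing, up to 7 cells.

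Other programmes of plasma cells stayed mostly within the fold. The counts below stand beside 8.68% of all genes at least 2 times higher and 5.4% at least 2 times lower, 14.1% in either direction. Of 14 survival genes 0 were higher and 2 lower, Tnfrsf17 and Bbc3, an inducer of cell death with 8 and 14 UMIs. Tnfrsf13b (TACI), another receptor for APRIL, was at 245 and 238 CPM, and Mcl1, the survival factor that plasma cells depend on, at 677 and 425 CPM. Of 13 homing genes 1 was past the fold, Ccr6, with 0 and 20 UMIs, 80% of them in 1 cell. Cxcr3, the receptor for interferon-induced chemokines, was at 127 CPM (91.5 to 172) and 179 CPM (160 to 200), and Ccr10, a homing receptor of IgA cells, at 124 and 106 CPM. Of 12 genes that change with plasma cell maturation 2 were at least 2 times lower: Epcam, an adhesion molecule that plasma cells also express, at 302 and 143 CPM, and Ly6k, at 369 and 142 CPM. For Ly6k 1 control cell held 41.8% of the UMIs and the log2 ratio of -1.39 became -0.61 after leaving out that cell. Epcam was found after thinning in 26.8% and 16.5% of plasma cells, against 0.4% and 0.7% of epithelial barcodes. Slpi summed to 10873 and 8296.5 CPM. After thinning it was found in 78.0% (62.4 to 89.4) of the control and 39.6% (32.1 to 47.6) of the knockout plasma cells, against 2.79% and 3.05% of macrophage barcodes. The intervals do not overlap. Per cell Slpi ranged from 0 to 701 UMIs with a median of 19 in the control library and from 0 to 3067 with a median of 2 in the knockout library, where 1 cell held 21.1% of the sum.

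The same all-gene shares, 8.68% higher and 5.4% lower, stand beside the counts of the lists that follow. Ifi27l2a, an interferon-induced gene, was the 1 of 9 type I interferon genes past the fold, at 184 CPM (141 to 237) and 648 CPM (611 to 687). Of the 9, 2 stood above the other kept barcodes. In the other kept barcodes it was at 129 and 378 CPM. Zbp1, an interferon-induced sensor of nucleic acids, was at 263 and 150 CPM. Of 18 stress and dissociation genes 3 were at least 2 times higher, the heat shock genes Hspa1a (63.5 and 191 CPM), Hspa1b (81.6 and 201 CPM) and Hsp90ab1 (828 and 1686 CPM), and 1 lower, Socs3, with 6 and 16 UMIs, 83.3% of the former in 1 cell. Hsp90ab1 stayed under its level in the other kept barcodes, 2658 and 2706 CPM. The immediate early genes Fos and Jun were at 535 and 384 CPM and at 1185 and 948 CPM. The part of tissue dissociation in the heat shock values was not tested. Of 10 Wnt response genes 0 were higher and 2 lower, Tcf7l2 with 10 and 13 UMIs and Ccnd1 with 7 and 17, both under the level of the other kept barcodes. Il10, an inhibitory cytokine of regulatory plasma cells, had 2 and 31 UMIs, and the interval of its ratio (0.745 to 25.3) includes 1. MHC class I genes (15 read) and metabolic genes (17 read) held 0 past the fold in either direction.

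**Figure D5:**
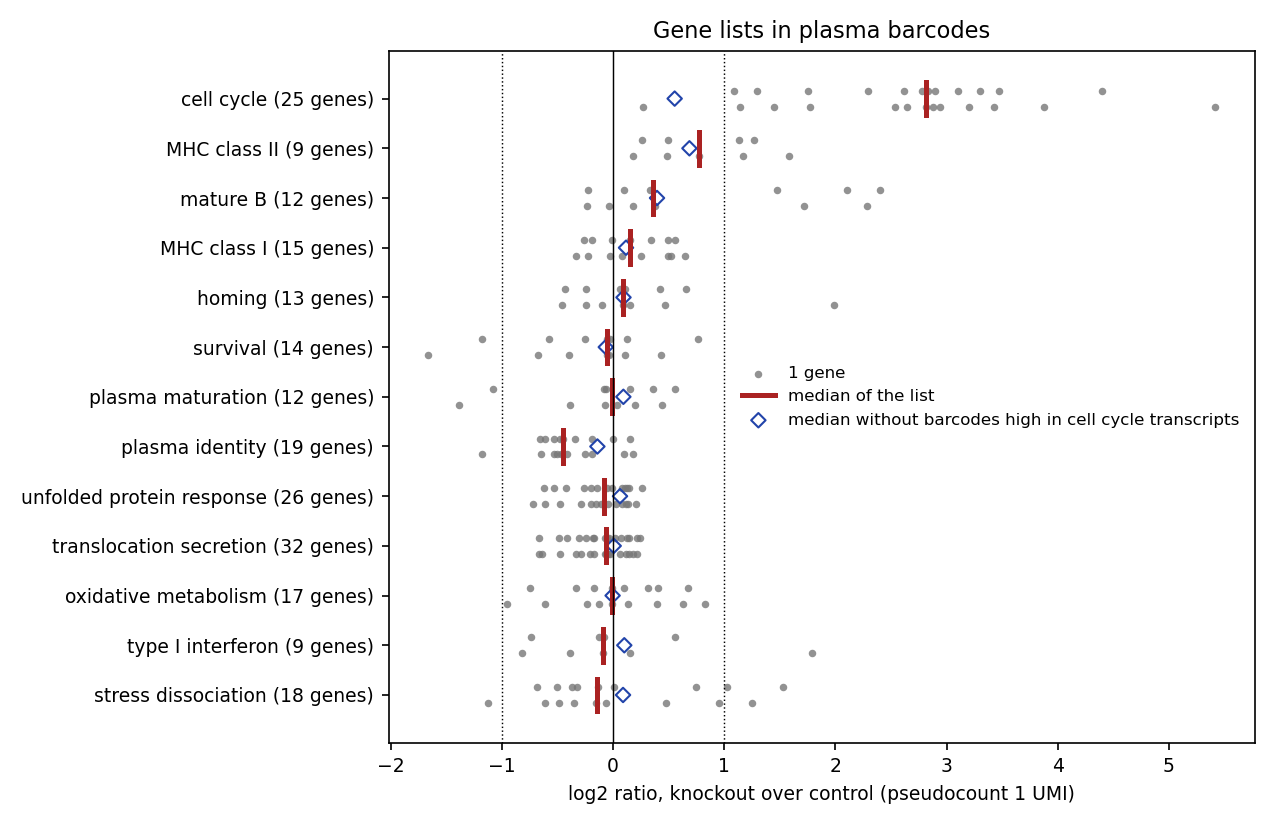
Log2 ratio of knockout over control for the genes of 13 lists with at least 20 UMIs (grey points), the median of each list (red bar) and its median without the cells high in cell cycle transcripts (blue diamond); dotted lines mark a 2-fold difference. The cell cycle list has the highest median of the lists drawn, 2.82; its diamond, at 0.55 over 11 genes, is set by the choice of the cells left out. The MHC class II median is 0.78 with and 0.69 without those cells.

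Single genes were ranked by their log2 ratio among those past the fold, with an interval leaving out 1, a UMI in at least 10% of the cells of the higher library, a log2 ratio of at least 0.58 in size without the top cell, and a level at or above that of the other kept barcodes. Under this rule, 308 genes stood higher and 120 lower in knockout cells. Ube2c was the highest, with 1 control UMI and 452 knockout UMIs (3.02 and 258 CPM, ratio 85.4, 15.3 to 3382). Most knockout UMIs of each of the 12 highest genes lay in the 27 cells high in cell cycle transcripts. For Ube2c these were 435 of the 452, for Ccna2 110 of 111 and for Rfc4 109 of 134. In the other 137 cells Ube2c was at 14.3 CPM. Cdca3, Cenpe, Ccna2, Cep55, Kif20b and Ect2 had no control UMI and 67 to 142 knockout UMIs. Against a floor of 3 control UMIs, Cdca3 was 8.95-fold, Cenpe, the kinetochore motor CENP-E, 7.50-fold and Ccna2 (cyclin A2) 6.99-fold higher. Cep55, Kif20b and Ect2, proteins of cell division, were 4.54-, 4.35- and 4.22-fold higher on that floor. The lower limits of the exact intervals of these ratios were smaller, from 7.18 for Cdca3 to 3.34 for Ect2. Nusap1, Cdca8 and Rfc4, a subunit of the replication clamp loader, each had 1 control UMI and 155, 151 and 134 knockout UMIs. Stmn1, which destabilises microtubules, and Birc5, the survivin gene, were at 12.1 and 167 CPM and at 9.07 and 129 CPM.

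The 12 lowest genes had few UMIs. Rgcc, a regulator of the cell cycle, had 53 and 69 UMIs (160 and 39.4 CPM, ratio 0.246, 0.170 to 0.359), and its log2 ratio of -2.03 was -2.05 without the cells high in cell cycle transcripts. Rap1gds1 was at 115 and 28.6 CPM, and Cldn7, a tight junction protein, had 32 and 28 UMIs. Prnp, the prion protein gene, was at 66.5 and 18.9 CPM, with 59.1% of the control UMIs in 1 cell. Tox2, Smyd4, Pofut1, Gpt2, Aldh3a2 and the unnamed gene models Gm49774, Gm36279 and Gm19951 had 8 to 15 UMIs in control and 11 to 23 in knockout cells. Log2 ratios were also taken after leaving out, for each gene, the 1 cell of either library with most of its UMIs. That of Rgcc was then -1.32, that of Gm49774 -1.40 (from -2.82), that of Tox2 -1.56 (from -2.23) and that of Prnp -0.64 (from -1.84).

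Marker lists of other cells gave the following sums in plasma cells. All 4 epithelial genes read in plasma cells were lower in the knockout library, with sums over the 14 listed genes of 964 and 425 CPM. The T and NK list summed to 0 and 26 UMIs, with all 13 genes at 0 in control cells and Cd8a, Cd8b1, Klrb1c and Thy1 at 0 in knockout cells. The macrophage list summed to 275 and 567 CPM, 29.8% of the latter in 1 cell, with Adgre1, Csf1r and Ms4a7 at 0 in both. The neutrophil list summed to 4 and 123 UMIs, 90.2% of the latter in 1 cell, with Csf3r and Retnlg at 0 in both. All 6 fibroblast genes read were lower, and 1 control cell held 98.0% of the 960 fibroblast list UMIs. The dendritic cell list summed to 1239 and 973 CPM, with 0 of 4 genes read past the fold and Cd209a, Clec9a and Siglech at 0 in both. The endothelial list summed to 33.3 and 57.1 CPM, and its 1 gene read, Pecam1, was past the fold with 8 and 97 UMIs. The acinar list summed to 0 and 51 UMIs and the erythroid list to 1 and 4. The part of these transcripts in the differences above was not tested.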

How the data were processed

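The 2 libraries were analysed, 1 per genotype, each pooled from 5 mice. The authors deposited raw counts of UMIs per gene and barcode, without normalisation, written by cellranger 8.0.0 per the file headers, while the submitters' processing notes name Cell Ranger 3.1.3 and mm10. Gene IDs were matched to GENCODE M21 (32158 of 32285). The control matrix held 13766 barcodes and 173934025 UMIs, the knockout matrix 12251 and 137527647, and 84.7% and 88.2% of barcodes were kept.

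UMIs were summed over plasma cells of each library. Immunoglobulin genes were given per 1000000 UMIs in all, other genes per 1000000 non-immunoglobulin UMIs (CPM). To each sum 1 UMI was added before the log2 ratio of knockout to control was taken, for genes with at least 20 UMIs over both libraries, and a ratio of at least 2 in either direction counted as past the fold. Intervals were exact: Clopper-Pearson for shares, Poisson for sums and conditional for ratios. For folds against a floor, a count of 0 was set at 3 counts. Isotypes needed 10 heavy constant UMIs, segments 5 UMIs with at least 50% in 1 segment. Doublets were called by Scrublet (scanpy 1.11.5, expected rate 0.08) and kept in the main values. The 12 highest and 12 lowest genes were named among those with an interval of the ratio leaving out 1, a UMI in at least 10% of the cells of the higher library, a log2 ratio of at least 0.58 in size without the top cell, and a level at or above that of the other kept barcodes of the higher library. Ribosomal and mitochondrial genes were not named. Of other lists up to 5 genes were named, those past the fold first. The members, lists and rules were chosen with earlier results of these data known, and the cell cycle limit after the scores were seen. The calculation was tested on simulated data. Python 3.11.15, numpy 2.4.6, scipy 1.17.1, pandas 2.3.3 and matplotlib 3.10.9 were used. Alternatives to these choices are given in the closing section.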

Additional observations from a re-analysis of the deposited data

How the results depend on the processing

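No paired analysis was possible because each genotype had 1 library and the labels carry no replicate numbers. With no replicates, values were recomputed under other settings. Of the recomputations of main values, 76 kept their size and 30 moved, and the same value counts once for each setting. The cause of a move was not tested unless the setting itself leaves out cells or genes.

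The ratio of plasma cell shares was 1.25 among barcodes with a Ptprc UMI, and 3.49 to 4.52 under the other rules for members. The 685 genes at least 2 times higher became 122 with a pseudocount of 5 UMIs, 160 with a minimum of 100 UMIs, 295 without the cells high in cell cycle transcripts and 328 in cells of at least 20% immunoglobulin. The 426 lower genes became 229 scaled to all UMIs, 940 with the pseudocount of 5, 4275 with a minimum of 1 UMI, 34 with 100 and 262 in cells of at least 20% immunoglobulin. Without the cells high in cell cycle transcripts, 11 of the 25 cell cycle genes still had 20 UMIs, and 1 of these was past the fold. Those cells were chosen by this same list, so the drop is fixed by the choice. MHC class II kept 1 gene with a mean over cells, a pseudocount of 5, without those cells and in cells of at least 20% immunoglobulin, and the mature B list 3 under the last 2 settings. Without those cells the log2 ratio with 1 UMI added turned negative for Ccna2 (-0.88), Nusap1 (-0.88) and Cdca8 (-0.29), on 0 to 5 UMIs a library, which is under the minimum of 20. Without the added UMI, Ccna2 (0 and 0.843 CPM) and Cdca8 (3.1 and 4.21 CPM) were not lower in the knockout library, and Nusap1 was at 3.1 and 2.53 CPM.

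At a limit of 95%, Ighg2c took 12.2% and 19.5% of control and knockout cells and any IgG 41.5% and 47.6%. At 10 cell cycle UMIs per 1000, 0% and 10.4% of control and knockout cells passed, and at 2, 9.76% and 20.1%. Thinned to 2000 UMIs, Mki67 was in 23.1% of control and 27.0% of knockout cells, and unthinned in 51.2% and 56.1% of control and knockout cells. For H2-Aa the shares were 43.6% and 57.7% at 2000 UMIs and 70.7% and 84.8% unthinned. The settings without the cells high in cell cycle transcripts, with 20% immunoglobulin, with other cell cycle limits and thinning to 2000 UMIs for the cell cycle share were chosen after seeing the data. With 41 control cells, a share of up to 8.60% could have gone unseen.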
